A study of Mus musculus with 8 samples.

Results

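Pericytes and smooth muscle cells are the mural cells of blood vessels, and the genes described here are 10 genes commonly used to mark them. Pdgfrb, Rgs5, Kcnj8, Abcc9 and Anpep are treated as pericyte genes, and Acta2, Tagln, Myh11, Cnn1 and Des as genes of the contractile apparatus and its filaments. The genes were chosen by name, and the array carried 20 probe sets annotated to one of these symbols alone, 11 for the pericyte genes and 9 for the contractile genes. All 10 were measured, of 18193 genes in all. The main probe set of a gene is the one with the highest mean log2 signal over the 8 arrays.

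Pericytes lie in the basement membrane of capillaries and keep close contact with the endothelium, which recruits them by releasing PDGF-B onto the receptor that Pdgfrb encodes. Smooth muscle cells wrap arteries and arterioles and contract through smooth muscle actin and myosin. The genes of these proteins are under the control of serum response factor and its coactivator myocardin. In the central nervous system mural cells help to maintain the blood-brain barrier and set local blood flow. Neither cell type is defined by a single gene, since fibroblasts also express Pdgfrb and can express Acta2 and Tagln.

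Optic nerves of C57BL/6 mice aged 35 to 45 days were maintained as organotypic cultures for 3 days, in medium with 20 mM lithium chloride or in control medium with saline. Total RNA of 4 lithium and 4 control samples was measured on Affymetrix Mouse Genome 430 2.0 arrays, 1 sample to each of 8 arrays. The labels give 6 nerves for each sample and the strain as above, whereas the study's methods give 6 mice, 12 nerves and the strain C57/BL10. The nerves were taken with the retina attached and freed of arachnoid membrane, so that vessels without blood flow, glia, axons and the pial sheath were measured together. Whether the samples within a group were separate cultures or animals is stated nowhere, and the p-values thus speak of the spread among the samples alone, which may be technical.

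The signals are linear MAS5 intensities with a trimmed mean of 100 on each array. The median signal was 12.3 to 16.5 on lithium arrays and 14.8 to 17.5 on control arrays. As a reference for low signals, the highest of 27 probe sets for added poly-A control transcripts reached 3.56 to 4.33 on lithium arrays and 2.13 to 5.64 on control arrays, and is called the control signal below. The 3′ to 5′ log2 difference of Gapdh, a sign of RNA quality, differed by 0.06 between lithium and control (two-sided exact permutation test, p = 0.171). Lithium array 2 stood apart in 14 markers of skeletal muscle, with a summed signal of 985 against 109 to 186 on the other lithium arrays and 99.7 to 186 on the control arrays. Results for Des, an intermediate filament gene of all muscle types, are therefore given with and without this array.

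Kcnj8 and Abcc9, which encode the subunits of 1 channel, are neighbouring protein-coding genes on mouse chromosome 6. Their RefSeq promoters (GRCm38.p6), 250 bases up to the annotated start, are printed beside that of Acta2, a contractile gene, since members of both groups are compared. Capitals mark CArG boxes, the binding motif of serum response factor, with 1 of the 6 central letters allowed to differ from A or T. Kcnj8 lies at chr6:142571615-142571864 on the minus strand, Abcc9 at chr6:142702275-142702524 on the minus strand and Acta2 at chr19:34255374-34255623 on the minus strand.
Kcnj8: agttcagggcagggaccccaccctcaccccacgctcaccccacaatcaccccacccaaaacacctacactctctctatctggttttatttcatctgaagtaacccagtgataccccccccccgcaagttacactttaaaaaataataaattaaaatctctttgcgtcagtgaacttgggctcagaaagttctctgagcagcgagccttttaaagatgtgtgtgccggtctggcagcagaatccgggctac
Abcc9: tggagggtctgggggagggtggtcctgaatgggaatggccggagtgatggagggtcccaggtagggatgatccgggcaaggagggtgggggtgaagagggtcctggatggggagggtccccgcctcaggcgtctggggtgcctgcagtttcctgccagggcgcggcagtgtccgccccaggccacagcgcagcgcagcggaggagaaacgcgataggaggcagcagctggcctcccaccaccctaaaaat
Acta2: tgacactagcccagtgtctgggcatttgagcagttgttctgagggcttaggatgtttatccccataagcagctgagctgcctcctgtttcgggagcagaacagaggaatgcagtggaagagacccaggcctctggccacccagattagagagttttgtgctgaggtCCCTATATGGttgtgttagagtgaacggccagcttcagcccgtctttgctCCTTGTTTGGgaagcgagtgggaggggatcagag
Acta2 held 2 such boxes, whose first bases lay 84 and 34 bases before the start. Promoters of 7 of the 10 genes were in the table, and none of the other 6 held a box in this window. The motif reads the same on both strands. Of all 32851 promoters of this length, 8.59% held at least 1 such box and 1.47% held one with all 6 central letters A or T, a form that none of the 7 had. A match is a description of the letters and not of binding.

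Pdgfrb, the receptor through which PDGF-B attracts and maintains pericytes, fell in lithium-treated nerves, and both of its probe sets passed the test. Its main probe set (1436970_a_at) read 26.8, 37.7, 43.2 and 74.5 on the lithium arrays, against 164, 126, 211 and 285 on the control arrays. Each lithium value lay under each control value, and the lowest control value was on array 2. The means were 45.5 ± 20.5 in lithium and 197 ± 68.6 in control (SD, n = 4 each), a log2 fold change of -2.14 (standard error 0.37) with an adjusted p of 0.0401 by limma. The second Pdgfrb probe set (1417148_at) read 27.1, 25.8, 33.8 and 39.6 in lithium against 116, 83.8, 169 and 202 in control, again without overlap. Its log2 fold change was -2.12 (adjusted p = 0.0258 from limma). In a mixed tissue, fewer cells of a type and less RNA for each cell cannot be told apart. Fibroblasts express Pdgfrb too, and the summed signal of 10 fibroblast markers was 761 to 2401 in lithium and 3439 to 5588 in control, and its part in the Pdgfrb result was not tested.

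The size of the Pdgfrb difference hardly moved with the arrays included, but its call did. The log2 fold change of the main probe set ranged from -2.42 to -1.92 when 1 array was left out. It was -2.18 within arrays 1 and 2 and -2.11 within arrays 3 and 4. Its adjusted p from limma was 0.0412 without lithium array 4 and 0.0645 to 0.101 in the other 7 such fits, and 0.0550 when the replicate number entered as a block. The second probe set had an adjusted p of 0.0496 with this block, and of 0.0334 to 0.0686 with 1 array missing, where it passed in 2 of 8 fits, those without lithium array 4 or control array 2.

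Kcnj8 and Abcc9 encode the pore subunit Kir6.1 and the sulfonylurea receptor SUR2, which together form the ATP-sensitive potassium channel of vascular mural cells. Kcnj8 read 9.31, 10.3, 25.5 and 28.2 in lithium, against 63.8, 51.1, 91.8 and 157 in control. The groups did not overlap, and the signal was lower on arrays 1 and 2 than on arrays 3 and 4 in each group. The means were 18.3 ± 9.91 in lithium and 90.9 ± 47.1 in control (SD, n = 4 each). The log2 fold change of -2.35 (standard error 0.51) had the largest size among the main probe sets of the 10 genes, but limma's adjusted p was 0.0714, above 0.05. Its log2 fold change was -2.54 within arrays 1 and 2 and -2.16 within arrays 3 and 4. The adjusted p was 0.0488 after quantile normalization, 0.0427 with 16 added to each value, 0.0340 with a trended and robust variance and 0.0066 when arrays 1 and 2 were set apart from arrays 3 and 4 by a term in the fit. It was 0.0540 with the replicate block, 0.0783 with array weights, 0.0522 with averaged probe sets and 0.0771 to 0.150 with 1 array missing, where none of the 8 fits passed.

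Abcc9 was weak in both groups. Its main probe set (1435752_s_at) read 0.43, 4.94, 5.96 and 2.44 in lithium and 9.07, 5.24, 24.0 and 28.4 in control, with an overlap between lithium array 3 and control array 2. The log2 fold change was -2.20 (limma adjusted p = 0.195, standard error 0.77). The probe set 1420408_a_at read 0.10, 1.27, 4.73 and 4.84 in lithium and 6.19, 5.53, 8.87 and 30.0 in control, without overlap but with an adjusted p of 0.222 from limma. The probe set 1435751_at fell, with 0.37, 1.06, 2.65 and 1.11 in lithium against 7.59, 5.29, 8.72 and 9.04 in control (adjusted p = 0.0260 from limma). Its lithium values were under the control signal on all 4 arrays, so that the difference is given as a bound, at least 1.92-fold lower in lithium. Under the replicate block its adjusted p was 0.0635, and it passed in 2 of the 8 fits with 1 array missing, those without lithium array 3 or control array 2. The outer neighbours of this gene pair on the chromosome, Ldhb and Cmas, had log2 fold changes of 0.14 (adjusted p = 0.843 from limma) and -0.12 (adjusted p = 0.623 from limma).

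Rgs5 encodes a regulator of G-protein signalling that is abundant in brain pericytes, and its probe sets disagreed. The main one (1417466_at) read 46.0, 39.6, 40.0 and 20.9 in lithium and 48.5, 23.8, 52.8 and 166 in control, so that the groups overlapped and control array 4 alone lay far above the rest. Its log2 fold change was -0.68 (adjusted p = 0.639 from limma), and it was -0.16 without control array 4. It was 0.33 within arrays 1 and 2 and -1.70 within arrays 3 and 4. The probe set 1420941_at fell, with 6.42, 5.57, 10.04 and 8.27 in lithium against 16.7, 19.4, 20.4 and 25.8 in control (limma adjusted p = 0.0297, log2 fold change -1.46 with a standard error of 0.22). This call held in 1 of the 8 fits with 1 array missing, that without lithium array 3, and under the replicate block its adjusted p was 0.0626. The probe set 1420942_s_at did not overlap either, at 3.54 to 3.90 in lithium and 6.12 to 24.1 in control (adjusted p = 0.0825 from limma). It was under the control signal on 2 of the lithium arrays. The fourth, 1420940_x_at, read 3.65 to 6.04 in lithium and 3.26 to 6.08 in control. Rgs4, the neighbouring gene of the same family, read 38.5, 43.0, 108 and 187 in lithium against 239, 264, 469 and 469 in control (log2 fold change -2.18, adjusted p = 0.105 from limma).

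Anpep encodes aminopeptidase N, a membrane peptidase also called CD13, which is found on pericytes and on myeloid cells. It read 19.5, 19.9, 29.8 and 36.8 in lithium, against 36.0, 32.1, 56.3 and 64.8 in control. Lithium array 4 overlapped control arrays 1 and 2, although within each replicate number the lithium value was the lower. Its log2 fold change was -0.83 (limma adjusted p = 0.230, standard error 0.31). With the same term for the array pairs it had an adjusted p of 0.0127, and of 0.0550 under the replicate block.

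**Figure D1:**
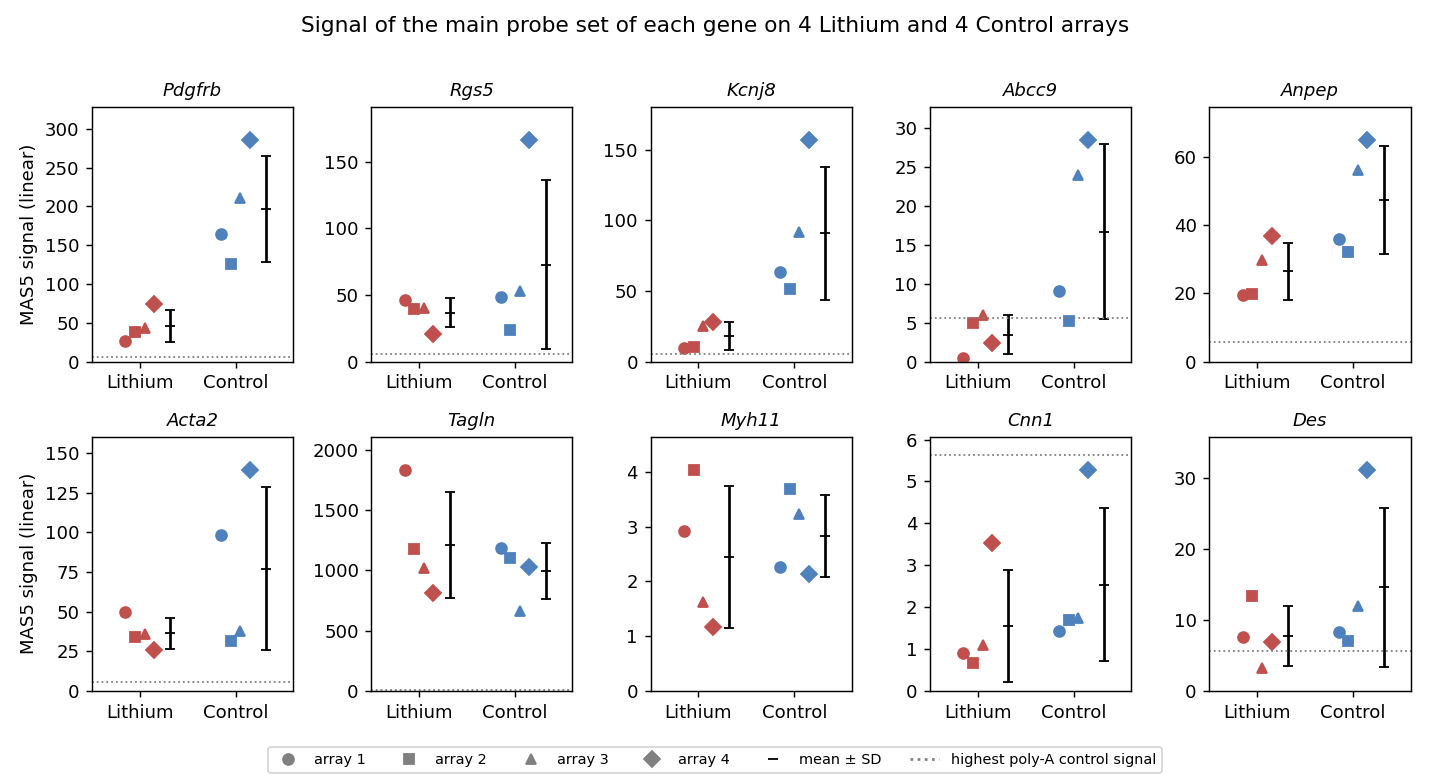
Linear MAS5 signal (vertical axes from 0, a scale of its own for each gene) of the main probe set of each gene on 4 lithium arrays (red) and 4 control arrays (blue), with a symbol for each replicate number and the mean ± SD beside the points. The dotted line is the highest control signal on any array, 5.64, which lies above the Myh11 panel. The groups separate for Pdgfrb and Kcnj8, and control array 4 is the highest control value for 8 of the 10 genes.

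Tagln, which encodes the actin-binding protein transgelin (SM22α), was the single gene of the 10 with a group mean of at least 200. It read 1834, 1178, 1015 and 812 in lithium, against 1186, 1098, 660.4 and 1024 in control. The values overlapped, and lithium array 1 was the highest of all. The means were 1210 ± 442 in lithium and 992 ± 231 in control (SD, n = 4 each). This gave a log2 fold change of 0.25 (adjusted p = 0.726 from limma), with a 95% interval from -0.44 to 0.95.

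Acta2, which encodes smooth muscle α-actin, read 49.7, 33.7, 35.6 and 25.9 in lithium, against 98.5, 31.7, 38.0 and 140 in control. Control arrays 2 and 3 lay among the lithium values, and control arrays 1 and 4 lay above them. The log2 fold change was -0.86 (limma adjusted p = 0.461, standard error 0.52), with a 95% interval from -2.08 to 0.37, and it was -0.48 without control array 4. The other probe sets of Acta2 were below 1 on 7 and 8 of the 8 arrays, so that they carried no measure of the gene.

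Myh11 and Cnn1, which encode the smooth muscle myosin heavy chain and calponin and define differentiated smooth muscle, were close to or under the control signal. Myh11 read 2.93, 4.04, 1.62 and 1.17 in lithium and 2.26, 3.68, 3.23 and 2.13 in control, and was under the control signal on 3 lithium and 3 control arrays. The second Myh11 probe set was below 1 on all 8 arrays. Cnn1 read 0.89, 0.67, 1.09 and 3.54 in lithium and 1.43, 1.70, 1.74 and 5.28 in control, and control array 4 alone rose above the control signal. The adjusted p from limma was 0.747 for Myh11 and 0.663 for Cnn1. The contractile label of this group therefore rests on Tagln and Acta2, and a change in Myh11 or Cnn1 was not detectable at these signals.

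Des encodes desmin, the intermediate filament of muscle, which pericytes also contain. Its main probe set read 7.52, 13.4, 3.22 and 6.88 in lithium, against 8.26, 7.05, 11.9 and 31.1 in control. The highest lithium value was on array 2, the array with the skeletal muscle markers, and the highest control value was on array 4. For Des the log2 fold change was -0.82 (adjusted p = 0.557 from limma), -1.14 without lithium array 2 and -0.36 without control array 4. It was 0.39 within arrays 1 and 2 and -2.03 within arrays 3 and 4. The second Des probe set was under the control signal on all 8 arrays, with its highest value, 3.60, on lithium array 2. The part of muscle RNA in these Des values was not tested.

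Counted together, 1 of the 10 main probe sets fell and none rose at the adjusted p of 0.05 that limma's calls were set to (Pdgfrb). Over all genes 2.05% were called lower and 1.18% higher, and 4003 genes (22.0%) had an unadjusted p under 0.05, against 4 of the 10, all of them pericyte genes. Of the 20 probe sets 4 were called lower, 2 of Pdgfrb and 1 each of Rgs5 and Abcc9, against 1.39% of all probe sets, and none was called higher, against 0.944%. When the replicate number entered as a block, 1 of these 4 probe sets still passed, the second of Pdgfrb, none of the 10 main probe sets did, and 104 probe sets fell and 20 rose on the whole array, against 625 and 425 without it. Every lithium value lay under every control value for 2 of the 10 main probe sets, against 8.92% of all genes, and over every control value for none, against 6.47%. Counted by probe set, lithium lay wholly under control for 7 of the 20, against 6.44% of all probe sets. All 7 belonged to pericyte genes. Of the 9 contractile probe sets, however, 3 were under the control signal on all 8 arrays. Those of Cnn1 and Acta2 (1444105_at) were under it on 4 lithium and 3 control arrays, and that of Myh11 (1448962_at) on 3 and 3. Among the 7 pericyte probe sets, 1435751_at of Abcc9 was under it on 4 lithium arrays. The probe sets 1420408_a_at of Abcc9 and 1420942_s_at of Rgs5 were under it on 2 lithium arrays each. The 2 groups of genes were thus not equally measurable, and these counts cannot tell a difference between them from a difference in signal. The probe sets of 1 gene share its transcripts, so that they are not independent counts.

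The median log2 fold change was -2.14 over the 5 pericyte genes, -0.63 over the 5 contractile genes and -0.82 over all 10, against -0.0028 over all genes, of which 50.3% were below 0. The median of the pericyte genes is the value of Pdgfrb, with Kcnj8 (-2.35) and Abcc9 (-2.20) below it and Anpep (-0.83) and Rgs5 (-0.68) above it. The median of the contractile genes is the fitted value of Cnn1, which was under the control signal on 4 lithium and 3 control arrays, so that it is no measured size of a change. With 16 added to each value the medians were -0.69, -0.077 and -0.55. Leaving out control array 4 gave a median of -0.47 over the 10 genes, and the highest control value was on that array for 8 of them. Without lithium array 1 the median of the pericyte genes was -1.69. Their median difference from the control means was -2.81 on that array and -1.44 to -1.17 on the other lithium arrays. Lithium array 1 had the lowest median signal of the 8 arrays, 12.3, and the most values under 1, 16.6%. Its 3′ to 5′ log2 difference of Gapdh, 0.53, was the highest. The part of array quality in the pericyte result was not tested. The study also set limits of 2 on the fold change and 200 on the level, read here as a mean linear signal in the higher group. With these limits, none of the 10 genes and none of their probe sets passed, against 0.330% of all genes and 0.204% of all probe sets, and these limits could be met by Tagln alone.

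**Figure D2:**
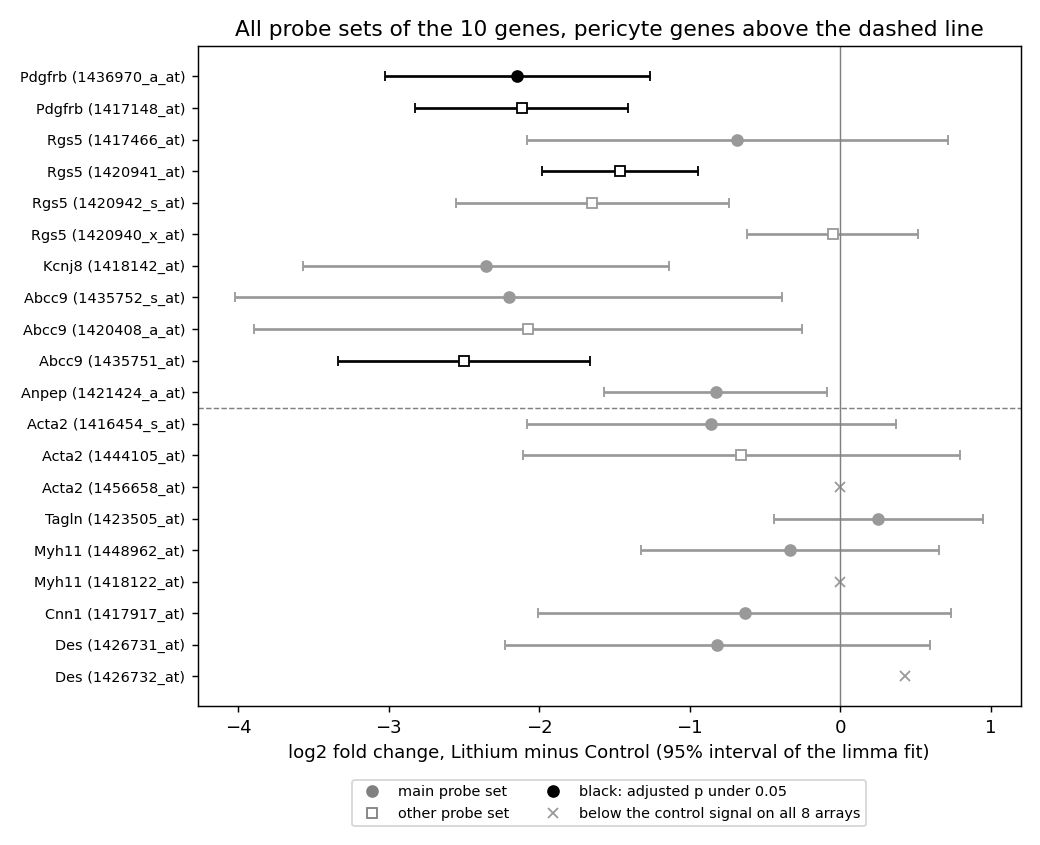
Difference of mean log2 signals between 4 lithium and 4 control arrays (lithium minus control, horizontal axis) for all 20 probe sets, with the 95% interval of the limma fit, pericyte genes above the dashed line. Black marks the 4 probe sets at an adjusted p under 0.05 in the fit without the replicate block, all of pericyte genes. Crosses mark 3 probe sets of contractile genes under the control signal on every array. For 1435751_at of Abcc9 the lithium values were under that signal, and the fitted value is no bound.

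The profiles of the genes over the 8 arrays were then compared. Each gene was centred on its own mean log2 value, and 2 genes were compared by the root mean square of their differences over the 8 arrays. The closest pair among the 10 was Pdgfrb and Kcnj8, at 0.33, followed by Rgs5 and Acta2 at 0.45, and the farthest was Abcc9 and Tagln at 1.77. Both of the closest pairs share the high value of control array 4. Over 5061 genes with a mean signal of at least 200, those closest to Pdgfrb were Pcolce (0.23), Olfml3 (0.26), Col5a2 (0.28), Col3a1 (0.29) and Efemp1 (0.33), on a scale where a flat profile lay at 1.18. Pcolce, Olfml3, Col5a2 and Col3a1 lay closer to Pdgfrb than any other of the 10 genes did. Col3a1 is 1 of the fibroblast markers described below, and the part of fibroblasts in the Pdgfrb profile was not tested. The genes closest to Acta2 were Cnn2 (0.57), Fas (0.58), Pttg1 (0.59), C1qc (0.60) and Stom (0.61), nearer to the flat profile at 0.80. Fas is also the neighbour of Acta2 on chromosome 19.

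Markers of other cell types were measured on the same arrays. Of 10 fibroblast markers all had log2 fold changes below 0 and 2 fell, Col3a1 and Lum, against 2.05% of all genes. Their median was -1.60. With the replicate block none of these markers passed, and with 1 array missing 2 passed without lithium array 1, 1 without lithium array 4 and none in the other 6 fits. More were called lower with 16 added (4), averaged probe sets (3), a trended and robust variance (3) or the term for array pairs (5). Of all 45037 probe sets 625 were called lower in the main fit, 786 after quantile normalization and 1036 with 16 added. The trended and robust variance gave 893 and the term for array pairs 1764. With a level of 200, 4 of the 5 fibroblast markers tested were called lower, against 385 of 8401 probe sets. Col1a1, the main fibrillar collagen of fibroblasts, read 115, 332, 291 and 399 in lithium against 871, 685, 772 and 858 in control (adjusted p = 0.0846 from limma). Of 12 endothelial markers 1 fell, Kdr, against 2.05% of all genes. Of these markers 8 were below 0 and the median was -0.47. Their summed signal was 284 to 705 in lithium and 566 to 1133 in control. None of them passed with the replicate block, and with 1 array missing 1 passed without lithium array 4 or control array 1 and none in the other 6 fits. After quantile normalization, with 16 added or with a trended and robust variance 2 were called lower, and 5 with the term for array pairs. Cdh5, the adhesion molecule of endothelial junctions, read 4.79 to 16.3 in lithium and 23.6 to 30.9 in control, whereas Pecam1, another endothelial adhesion molecule, read 9.17 to 19.0 in lithium and 9.87 to 14.02 in control. None of 10 astrocyte, 8 oligodendrocyte and 6 microglia markers passed limma's adjusted p, with medians of -0.04, 0.05 and -0.24. None of 14 skeletal muscle markers passed, and their median was 0.88, with a signal of 245 for Mylpf, a myosin light chain of fast fibres, on lithium array 2 and 19.8 to 25.6 on the other lithium arrays.

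Of 20 further genes of the smooth muscle cytoskeleton, 1 fell, against 2.05% of all genes. The other 19 did not pass, and the median was -0.44, with 16 below 0. Tpm1, a tropomyosin that is also widely expressed outside muscle, fell, with 359, 383, 386 and 425 in lithium against 673, 610.1, 693 and 612 in control (log2 fold change -0.74, adjusted p = 0.0149 from limma). It passed in all 8 fits with 1 array missing but not with the replicate block (0.0689) or with the mean of its probe sets (log2 fold change -0.22, adjusted p = 0.287). Tpm2, the tropomyosin of smooth and slow muscle, read 47.2, 72.8, 197 and 236 in lithium against 588, 412, 563 and 705 in control, without overlap and with an adjusted p of 0.0848 from limma. It passed with a level of 200 (limma adjusted p = 0.0166), 16 added (0.0474), a trended and robust variance (0.0411) or the term for array pairs (0.0259). Tpm2 did not pass with the replicate block (0.105) or in any of the 8 fits with 1 array missing. Myl6, a myosin light chain of smooth muscle and non-muscle cells, read 181, 244, 153 and 134 in lithium against 77.4, 70.6, 106 and 90.5 in control (adjusted p = 0.0648 from limma), above every control value. It passed as higher with 16 added (limma adjusted p = 0.0413), averaged probe sets (0.0469) or a trended and robust variance (0.0380). Myl6 did not pass with the replicate block (0.156) or in any of the 8 fits with 1 array missing.

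None of 20 further mural markers passed limma's adjusted p, their median was -0.83 and 16 were below 0. Every lithium value lay under every control value for 9 of the 20, a larger share than the 8.92% of all genes. For 1 of the 20 every lithium value lay over every control value, against 6.47% of all genes. Itga1, the α1 integrin chain of collagen receptors, read 7.43, 16.5, 34.7 and 29.4 in lithium against 87.5, 79.4, 123 and 137 in control (adjusted p = 0.0598). Cox4i2, a subunit of cytochrome c oxidase found in brain pericytes, read 16.6, 10.8, 28.6 and 28.4 in lithium against 56.2, 49.5, 71.1 and 67.3 in control (adjusted p = 0.0632). Gucy1a1, a subunit of the nitric oxide receptor guanylate cyclase, read 58.1, 49.1, 85.2 and 56.4 in lithium against 126, 175, 106 and 106 in control (adjusted p = 0.0720). Mcam, an adhesion molecule of mural and endothelial cells, lay the other way, at 348 to 490.2 in lithium against 154 to 298 in control (adjusted p = 0.0823). Cspg4, the NG2 proteoglycan of pericytes and oligodendrocyte precursors, read 56.0 to 84.1 in lithium and 48.6 to 82.9 in control (adjusted p = 0.873). Rgs4, Mcam, Cspg4, Srf and Myocd were singled out after their values were seen. Of the 20 markers 2 passed as lower after quantile normalization, 3 with 16 added and 4 with the mean of the probe sets. With a trended and robust variance 3 passed as lower and 1 as higher, and with the term for array pairs 4 and 1. Over all 45037 probe sets these last counts were 893 and 467, and 1764 and 1070. With a level of 200, where 4 markers were tested, 2 passed as lower and 1 as higher, against 385 and 300 of 8401 probe sets. None of the 20 markers passed with the replicate block.

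Of 13 transcription regulators of mural cells, 1 fell, against 2.05% of all genes, and 12 did not pass, with a median of -0.35. Foxc1, a forkhead factor needed for brain pericytes and meninges, fell, with 47.2, 43.7, 38.6 and 55.6 in lithium against 163, 128, 152 and 131 in control (limma adjusted p = 0.0108, log2 fold change -1.64 with a standard error of 0.14). It passed in all 8 fits with 1 array missing, and its adjusted p was 0.0564 with the replicate block. Tbx18, a T-box factor that marks mural cells, read 6.65, 10.3, 15.6 and 30.0 in lithium against 44.4, 36.7, 67.8 and 73.4 in control (adjusted p = 0.0919), and Hey2, a Notch target of arterial vessels, read 135 to 163 in lithium and 183 to 249.7 in control (adjusted p = 0.0988). Srf, which encodes serum response factor, read 113 to 129 in lithium and 80.2 to 124 in control (adjusted p = 0.361), and Myocd, which encodes myocardin, read 0.74 to 2.61 in lithium and 0.08 to 2.47 in control.

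Of 17 signals between endothelium and mural cells, 3 fell, against 2.05% of all genes. The other 14 did not pass, and the median was -0.75. Jag1, a Notch ligand, fell, with 168, 155, 135 and 115 in lithium against 261, 275, 300.5 and 287 in control (log2 fold change -0.99, adjusted p = 0.0201 from limma). Pdgfb, the ligand of the Pdgfrb receptor, fell as well, with 18.4, 16.8, 20.3 and 19.9 in lithium against 27.4, 25.7, 32.3 and 27.6 in control (log2 fold change -0.58, adjusted p = 0.0375 from limma). Tgfb1, a ligand that promotes mural differentiation, fell, with 25.5, 22.3, 49.4 and 46.3 in lithium against 105, 94.0, 136 and 147 in control (log2 fold change -1.81, adjusted p = 0.0392 from limma). Jag1 had an adjusted p of 0.0802 under the replicate block, Pdgfb of 0.0619 and Tgfb1 of 0.0540, and Pdgfb and Tgfb1 did not pass when any 1 array was missing, whereas Jag1 passed in 3 of 8 such fits. When the probe sets of each gene were averaged, the log2 fold change was -0.86 for Jag1 (adjusted p = 0.0997), -0.28 for Pdgfb (adjusted p = 0.0794) and -0.69 for Tgfb1 (adjusted p = 0.0573).

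Of 17 receptors, channels and enzymes of vascular tone, 1 passed as lower, against 2.05% of all genes. The other 16 did not pass, and the median was -0.39. The gene that passed was Agtr1a, an angiotensin receptor, whose values lay under the control signal on all 8 arrays, so that no fold is given. It did not pass with the replicate block (adjusted p = 0.0626) or with 16 added (0.0802), and it passed in 5 of the 8 fits with 1 array missing, those without lithium array 1, lithium array 3 or control array 3 being the exceptions. Pde5a, the phosphodiesterase that degrades cyclic GMP in smooth muscle, read 19.5, 17.1, 27.0 and 34.7 in lithium against 76.8, 52.0, 46.9 and 61.5 in control (adjusted p = 0.0587 from limma). Prkg1, the kinase activated by cyclic GMP, read 16.2, 17.4, 10.8 and 10.2 in lithium against 24.4, 23.5, 25.1 and 22.9 in control (adjusted p = 0.0759 from limma). Neither overlapped between the groups.

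**Figure D3:**
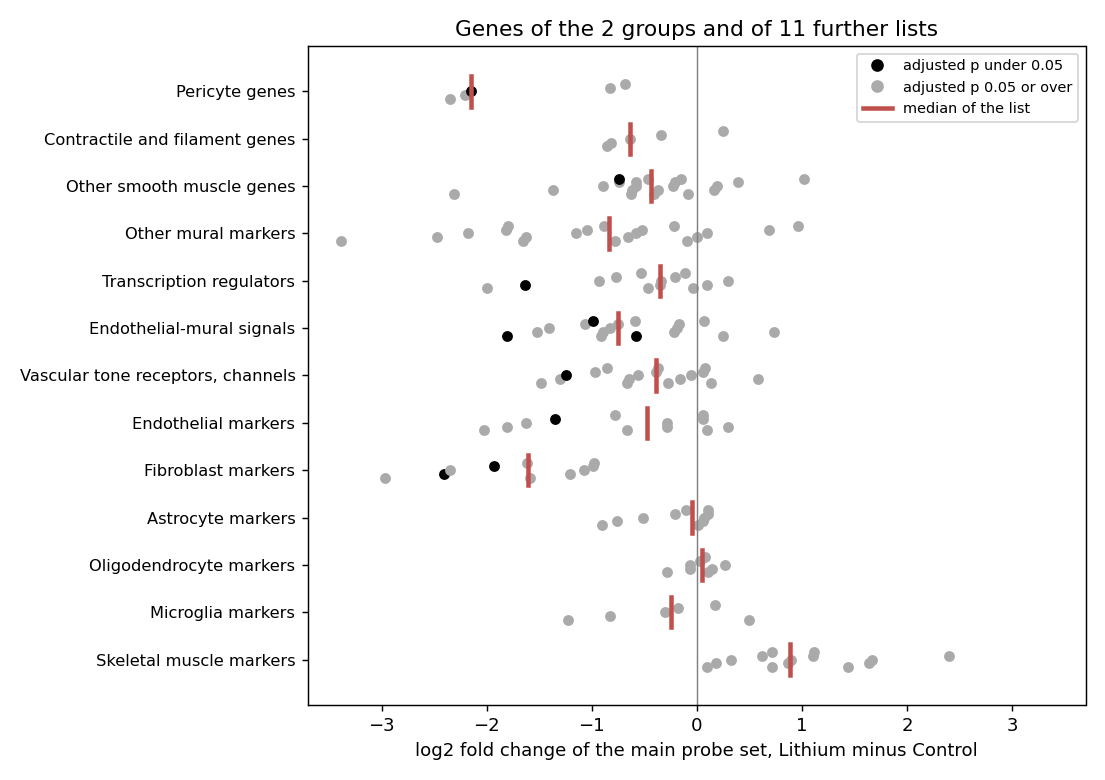
Difference of mean log2 signals between 4 lithium and 4 control arrays (lithium minus control) for the main probe set of each gene in the pericyte and contractile groups and in 11 further lists, a point for each gene (black at an adjusted p under 0.05) and a red bar at the median. The medians of the pericyte genes (-2.14) and of the fibroblast markers (-1.60) lie lowest, and those of astrocyte (-0.04) and oligodendrocyte (0.05) markers lie close to 0.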

How the data were processed

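The deposited values are intensities on a linear scale, 1 for each probe set and array, which the authors obtained with the MAS5 algorithm in Agilent GeneSpring GX from GeneChip Operating Software files. They are scaled to a trimmed mean of 100 (without the highest and lowest 2%), not log transformed, and do not show the baseline transformation that the methods name. Detection calls were not used. Of 45101 probe sets 64 Affymetrix controls were left out and 45037 tested, and 34958 had 1 symbol in the platform annotation, 932 several and 9211 none. All 20 probe sets of the 10 genes were found in RefSeq by Entrez identifier.

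Intensities were floored at 1 (14.5% of values), which shrinks differences of weak genes, and taken to log2. The difference lithium minus control was estimated in limma 3.58.1 (lmFit, eBayes; R 4.3.3) with no block, and Benjamini-Hochberg adjustment ran over the tested probe sets, with calls at an adjusted p under 0.05. The study names a moderated test with this adjustment. A log2 fold change is a difference of 2 group means of log2 signals. A group with every value under the control signal is given as a bound, with each value raised to that signal. Precision is limited by there being 4 arrays in each group.

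The genes, the 11 further lists and the alternatives were chosen with earlier results of these data known. Of each further list, up to 3 genes in each direction with the lowest adjusted p were named, and where fewer than 3 passed, those with the lowest adjusted p. Of marker lists up to 2 genes were named, and Lum and Kdr, which make up small counts, were added after their values were seen, as were chromosomal neighbours.

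Replicate numbers 1 to 4 occur in both groups. After subtraction of group means, arrays with the same number correlated at 0.130 to 0.197 in the 4 pairs, over the limit of 0.1, which met the rule for pairs on the data alone. The main fit stayed without the block, and the calls and the black marks of the figures come from that fit. The blocked values are given beside the results that the block changes. Arrays of other numbers within 1 and 2 or within 3 and 4 correlated at 0.071 to 0.131. As alternatives, arrays were quantile normalized, centred on the median, or weighted, probe sets were limited to a level of 200 or to those without _x_at, 16 was added before log2, the probe sets of a gene were averaged, the variance was trended and robust, the replicate number or the array pair (1 and 2, 3 and 4) entered the fit, each array pair was fitted alone, and each array was left out. The fitting was tested on simulated data. Python 3.11.15 with matplotlib 3.10.9 drew the figures.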

Additional observations from a re-analysis of the deposited data

Results flagged for a closer look

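Within the groups of 4 arrays, 8 of 82 sets of values held a single array far from the other 3 by Dixon's test. For independent sets of normally distributed values chance flags about 1 in 20. Here linear signals were tested and the sets share arrays, so that this rate cannot be set against the count. Control array 4 was that array for Abcc9 (1420408_a_at), with a signal of 30.0 against 5.53 to 8.87, for Acta2 (1444105_at), with 6.17 against 0.22 to 0.62, for Cnn1, with 5.28 against 1.43 to 1.74, and for the second Des probe set (1426732_at), with 1.09 against 0.20 to 0.25. Lithium array 4 was high for Cnn1, with 3.54 against 0.67 to 1.09. Lithium array 2 was high for the second Des probe set, with 3.60 against 0.06 to 0.24, for Agtr1a, with 1.09 against 0.12 to 0.24, and for the summed signal of 14 skeletal muscle markers, with 985 against 109 to 186. The values of Abcc9, Acta2 and Cnn1 on control array 4 lay above the control signal of that array, 2.13. Apart from these and the muscle sum, the flagged values lay under the control signal of their array.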

How the results depend on the processing

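Over 20 alternatives the 10 genes gave 191 values, of which 173 kept their direction and side of the threshold, 10 were weaker, 5 stronger and 3 reversed, and none of the 3 was called: within arrays 1 and 2 the log2 fold change was 0.33 for Rgs5, 0.25 for Myh11 and 0.39 for Des. The count of genes called lower, 1, was 2 after quantile normalization, with 16 added to each value and with a trended and robust variance (Kcnj8 joined Pdgfrb), 3 with a term for arrays 1 and 2 against 3 and 4 (Anpep as well), and 0 with a level of 200 (where Tagln alone was tested), with the replicate block, within arrays 1 and 2 and within arrays 3 and 4. It was 0 to 1 when 1 array was left out. None was called higher in any alternative by limma. Over all probe sets 425 rose and 625 fell. With 16 added, 699 rose and 1036 fell, with the term for array pairs 1070 and 1764, and with the replicate block 20 and 104 (9597 at an unadjusted p under 0.05). None passed within either pair of arrays, 385 fell with a level of 200, and 71 to 205 rose and 98 to 412 fell when 1 array was left out. The median over the 10 genes was -0.55 with 16 added, -0.54 within arrays 1 and 2, -1.48 within arrays 3 and 4 and -1.09 to -0.47 with 1 array left out. That of the contractile genes was -0.077 with 16 added and 0.25 within arrays 1 and 2, and -0.75 to -0.36 with 1 array left out, and that of the pericyte genes was -0.69 with 16 added and -2.34 to -1.69 with 1 array left out. Adding 16 shrinks fold changes of weak signals by construction, and the cause of the other shifts was not tested. Signals near the control signal limit Myh11, Cnn1, Abcc9, Des and the Rgs5 probe sets 1420942_s_at and 1420940_x_at.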
